A study of Drosophila melanogaster with 16 samples.

Results

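The 4 dopamine receptor genes of Drosophila melanogaster, Dop1R1, Dop1R2, Dop2R and DopEcR, were followed in P1 neurons of naive and mated males. They were taken by FlyBase symbol from a table of 17559 gene rows, and all 4 were found. P1 neurons are a male-specific cluster of brain interneurons that express fruitless (fru) and drive courtship, and the labels put 12 cells in the cluster. All males, naive and mated, carried UAS>stop>GFP/+ with fruFLP/NP2631-Gal4. Green fluorescence therefore marked cells that had both NP2631-Gal4 activity and a recombinase expressed from fru. Males were 3 to 6 days old per the series description, while the treatment protocol gives 4 to 6 days of isolation. Mated males had spent a training period with a female, whereas naive males stayed virgin. Fluorescent cells were taken by patch pipette from living flies soon after training. Each group had 4 libraries, each sequenced in 2 runs that were summed. The labels do not give the number of cells or males behind a library.

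Dopamine sets the motivational state of a male fly, and dopaminergic neurons contact P1 neurons, in which dopamine signalling is tied to mating drive and its satiation. Dop1R1 and Dop1R2 are G protein-coupled receptors that raise cyclic AMP or calcium when dopamine binds. Dop2R couples to the inhibitory G proteins Gi and Go, lowers cyclic AMP and also serves as an autoreceptor on dopamine neurons. DopEcR is a membrane receptor that responds both to dopamine and to the steroid hormone ecdysone.

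All 4 receptor genes were detected in all 8 libraries, the lowest count being 203. Their levels were not similar. DopEcR and Dop2R were abundant, Dop1R1 was intermediate and Dop1R2 was low. The mean of each receptor was lower in mated than in naive libraries, from 80.4% of the naive mean for Dop1R2 to 48.0% for DopEcR. None of the 4 differences passed an adjusted p of 0.05 in edgeR's quasi-likelihood test across all genes, where 27 of 7090 tested genes (0.381%) passed. Of these 27 genes 3 were lower and 24 higher in mated libraries. DopEcR came closest, with 4 mated libraries that all lay below the 4 naive libraries. At an unadjusted p under 0.05, DopEcR and Dop1R1 were lower in mated libraries, against a background of 5.02% of all genes tested lower and 5.54% higher. Because levels are relative to all RNA in a library, a smaller share of P1 RNA in it and less receptor RNA per P1 cell cannot be told apart. The p-values measure the spread between these libraries, since nothing in the labels says that each came from separate males.

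Library totals ran from 6897560 to 9162763 counts in the naive group and from 7440583 to 13651313 in the mated group. Levels are given in CPM, counts scaled to a common library total with TMM factors. The 4 genes were read deeply enough that counting error was small: its largest relative size in a library was 2.52% for Dop1R1, 7.02% for Dop1R2, 1.65% for Dop2R and 1.73% for DopEcR. The A and B runs of each gene lay within 2 counting standard deviations of each other in 8 of 8 libraries. The reads carried no molecular identifiers, so these figures cover counting error only. The biological coefficient of variation across all tested genes was 0.936.

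Dop1R1 (FBgn0011582) lies on the minus strand of chromosome arm 3R from 14165379 to 14214810 in BDGP6, with 5 annotated transcripts, 14.565 kb of exon and a longest product of 560 residues. This receptor acts mainly through Gs and adenylyl cyclase and is required in flies for aversive and appetitive learning. Its level in naive libraries 1 to 4 was 373.8, 522.9, 397.0 and 285.1 CPM. Its level in mated libraries 1 to 4 was 212.9, 237.3, 349.8 and 207.7 CPM. Mated libraries 1, 2 and 4 lay below every naive library, whereas mated library 3 lay above naive library 4, so the groups overlapped. The mean was 394.7 ± 98.1 CPM in the naive group and 251.9 ± 66.5 CPM in the mated group (SD, n = 4). The log2 fold change, mated against naive, was −0.65 ± 0.27 (SE), with a 95% interval of −1.24 to −0.060 (edgeR, unadjusted p = 0.0330, adjusted p = 0.409). An exact permutation test of log2(CPM + 1), two-sided, gave p = 0.0571 for Dop1R1. With 70 assignments of the 8 libraries the smallest p such a test can give is 0.0286.

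Dop1R2 (FBgn0266137) lies on the minus strand of 3R from 29630304 to 29659984, with 3 transcripts, 5.164 kb of exon and a longest product of 807 residues. It signals through calcium as well as cyclic AMP and is known in mushroom body neurons for its part in forgetting. Its level in naive libraries 1 to 4 was 120.7, 32.7, 55.5 and 26.8 CPM, and in mated libraries 1 to 4 it was 61.7, 58.5, 30.6 and 38.6 CPM. Naive library 1 stood above the other 7 libraries, and every mated library lay within the naive range. The means were 58.9 ± 43.0 CPM in the naive group and 47.4 ± 15.1 CPM in the mated group (SD, n = 4). The log2 fold change was −0.32 ± 0.55 (SE), with a 95% interval of −1.50 to 0.87 (edgeR, adjusted p = 0.952). Without naive library 1 the log2 fold change was 0.29, so the direction rested on that library. The interval spans a fold of 0.354 to 1.82 and includes no difference.

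Dop2R (FBgn0053517) lies on the minus strand of the X chromosome from 20004680 to 20062706, with 6 transcripts, 6.53 kb of exon and a longest product of 905 residues. Its level in naive libraries 1 to 4 was 1119, 1380, 608.7 and 788.1 CPM. Its level in mated libraries 1 to 4 was 941.7, 342.3, 1076 and 623.7 CPM. High and low libraries occurred in both groups, and 3 of the 4 mated libraries lay within the naive range. Mated library 2 held the lowest level of all 8. The means were 973.8 ± 343 CPM in the naive group and 745.8 ± 329 CPM in the mated group (SD, n = 4). The log2 fold change was −0.38 ± 0.34 (SE), with a 95% interval of −1.12 to 0.35 (edgeR, adjusted p = 0.802). It was −0.15 without mated library 2 and −0.17 without naive library 2.

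DopEcR (FBgn0035538) lies on the minus strand of chromosome arm 3L from 4367649 to 4380387, with 3 transcripts, 4.291 kb of exon and a longest product of 322 residues. In flies this receptor is known for its part in courtship memory, ethanol sedation and sugar sensitivity. Its level in naive libraries 1 to 4 was 752.1, 1089, 1485 and 990.5 CPM. Its level in mated libraries 1 to 4 was 388.5, 381.9, 566.4 and 736.3 CPM. The groups did not overlap, but the gap between naive library 1 and mated library 4 was narrow. Such separation, with the mated group lower, was seen in 241 of 7090 tested genes (3.4%). The means were 1079 ± 306 CPM in the naive group and 518.3 ± 169 CPM in the mated group (SD, n = 4). The log2 fold change was −1.06 ± 0.28 (SE), with a 95% interval of −1.66 to −0.46, a fold of 0.317 to 0.727 (edgeR, unadjusted p = 0.00195, adjusted p = 0.143). An exact permutation test of log2(CPM + 1), two-sided, gave p = 0.0286 for DopEcR, the smallest it can give. That p follows from the separation of the groups, which 543 of the 7090 tested genes showed in either direction. In edgeR's test 95 genes had a smaller p, and the DopEcR log2 fold change stood at percentile 9.99 of all tested genes. DESeq2 gave DopEcR a log2 fold change of −1.05 with an adjusted p of 0.0288, in a fit that called 423 genes in all and 134 of 8180 (1.64%) lower. Over all alternative fits the adjusted p of DopEcR ran from 0.0288 to 0.702, and leaving out 1 library at a time kept its log2 fold change between −1.28 and −0.87.

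**Figure D1:**
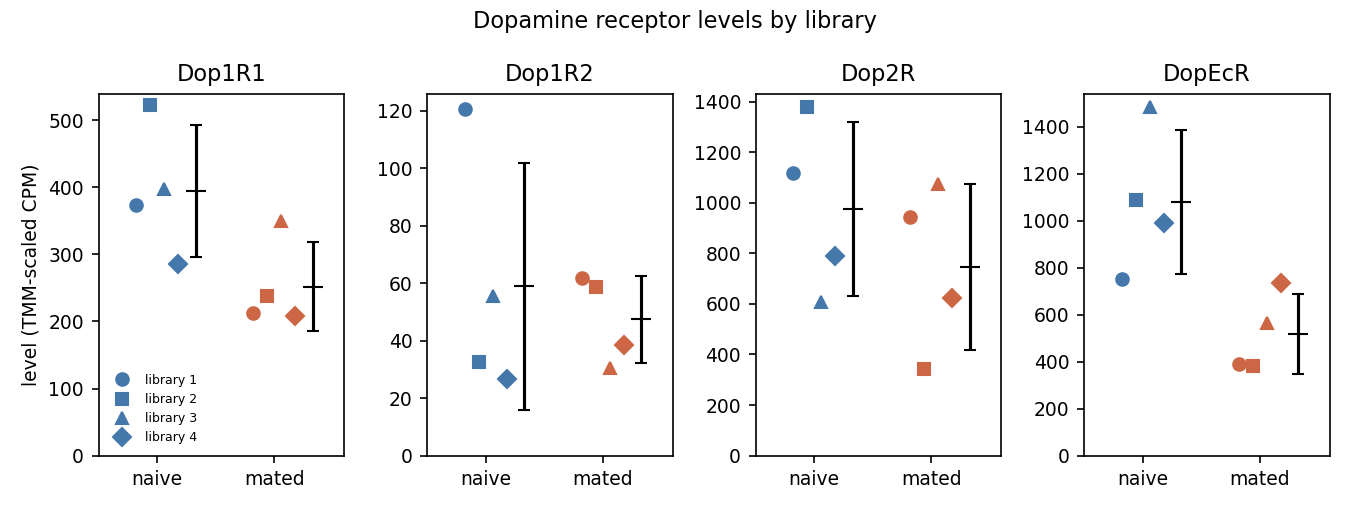
Level of each dopamine receptor gene in CPM (y axis from 0, 1 scale per gene) in each of the 4 naive (blue) and 4 mated (orange) libraries, with the mean and SD beside each group. Symbols number the libraries within a group and pair nothing. The DopEcR groups are separate (lowest naive 752.1, highest mated 736.3), while those of Dop1R1, Dop1R2 and Dop2R overlap.

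The 4 receptors did not all peak in the same library. Dop1R2 peaked in naive library 1, Dop1R1 and Dop2R in naive library 2, and DopEcR in naive library 3. The lowest libraries were mated library 4 for Dop1R1, naive library 4 for Dop1R2, and mated library 2 for both Dop2R and DopEcR. Likeness was measured as the root-mean-square difference of log2 levels, each centred on its own mean, over the 8 libraries. The closest pair of receptors was Dop1R1 and DopEcR at 0.489, and the farthest was Dop1R2 and DopEcR at 1.02. The spread of a receptor about its own mean on this scale was 0.444 for Dop1R1, 0.654 for Dop1R2, 0.599 for Dop2R and 0.652 for DopEcR. The distance between Dop1R1 and DopEcR was thus larger than the spread of Dop1R1 itself. By nearness among tested genes, DopEcR was in position 779 from Dop1R1, and Dop1R1 in position 502 from DopEcR.

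The titles of the samples hold a number that the labels leave unexplained. It was 1119 for 1 naive and 2 mated libraries, and no other number occurred in both groups. Among these 3 libraries DopEcR stood at 1485 CPM in the naive library and at a mean of 477.5 CPM in the mated libraries, a log2 difference of −1.66. Dop1R1 stood at 397.0 against 281.3 CPM (log2 difference −0.54) and Dop1R2 at 55.5 against 46.2 CPM (−0.34). Dop2R went the other way, from 608.7 CPM in the naive library to 1009 CPM in the mated libraries (0.72). When edgeR took this number as a factor, the log2 fold change was −1.64 for DopEcR and 0.73 for Dop2R, on 2 residual degrees of freedom. Since only 1119 occurred in both groups, these values rest on the same 3 libraries and repeat the differences above. The 1 naive library among them, naive library 3, had the highest DopEcR level of all and the lowest Dop2R level of the naive group.

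**Figure D2:**
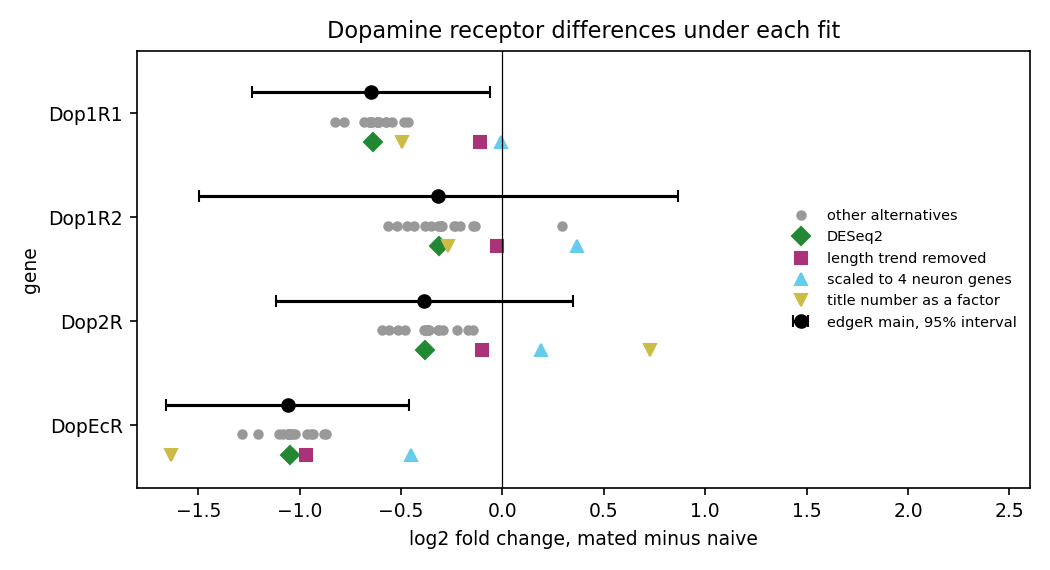
Log2 fold change of each receptor, mated minus naive (x axis), with edgeR's 95% interval (black), the values of the other alternative fits (grey) and 4 fits marked by colour. DopEcR lies below 0 in every fit drawn, from −1.64 to −0.45, while scaling to 4 neuron genes brings Dop1R1 to −0.009 and turns Dop1R2 (0.37) and Dop2R (0.19) above 0.

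Levels of different genes were compared per kilobase of exon. DopEcR led with 186.1 ± 87.8 CPM per kb over the 8 libraries (SD), followed by Dop2R with 131.7 ± 51.2, Dop1R1 with 22.2 ± 7.47 and Dop1R2 with 10.3 ± 5.90. DopEcR and Dop2R did not differ beyond their spread. DopEcR was the higher of the pair per kilobase in 6 of 8 libraries. The next step was clear, since DopEcR and Dop2R each exceeded Dop1R1 in 8 of 8 libraries, by 1.44-fold or more even in CPM without the length correction. Dop1R1 exceeded Dop1R2 per kilobase in 8 of 8 libraries. Of the summed level of the 4 receptors per kilobase, DopEcR made up 57.0% ± 12.5 in the naive group and 46.8% ± 11.3 in the mated group, and Dop2R made up 34.1% ± 10.9 and 42.4% ± 12.2 (SD, n = 4). Dop1R1 made up 6.12% ± 0.83 and 6.88% ± 2.10, and Dop1R2 2.70% ± 2.19 and 3.92% ± 2.19. These shares overlapped between the groups for every receptor. The position of Dop1R1 depends on the length assigned to it: with its shortest annotated transcript (2.616 kb) its level was 123.6 CPM per kb, against 329.4 for DopEcR, 197.2 for Dop2R and 10.7 for Dop1R2 by the same rule. No receptor shared exon bases with another annotated gene.

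Set beside the other monoamine receptor genes, DopEcR and Dop2R held the top 2 places of 17 per kilobase. Octalpha2R, an octopamine receptor of the alpha class, came next with 43.4 CPM per kb. It was followed by 5-HT1A, an inhibitory serotonin receptor, with 34.0 CPM per kb. Dop1R1 was in position 9, behind Octbeta1R, Octbeta2R, Octbeta3R and the octopamine-tyramine receptor Oct-TyrR, which lay between 27.6 and 33.0 CPM per kb. Dop1R2 was in position 13. In CPM, without the length correction, Dop1R1 was in position 4 and Dop1R2 in position 12. TyrRII, a tyramine receptor, was lowest with 1.49 CPM per kb and had a count of 0 in 2 naive and 2 mated libraries. Together the dopamine receptors held 59.6% ± 1.57 of the summed level of the 17 genes in the naive group and 55.9% ± 3.92 in the mated group (SD, n = 4). Their share was 58.5% to 61.9% in the naive group and 52.5% to 61.4% in the mated group, so the groups overlapped. Among all tested genes the level in CPM stood at percentile 97.5 for Dop2R, 97.2 for DopEcR, 91.2 for Dop1R1 and 63.9 for Dop1R2.

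**Figure D3:**
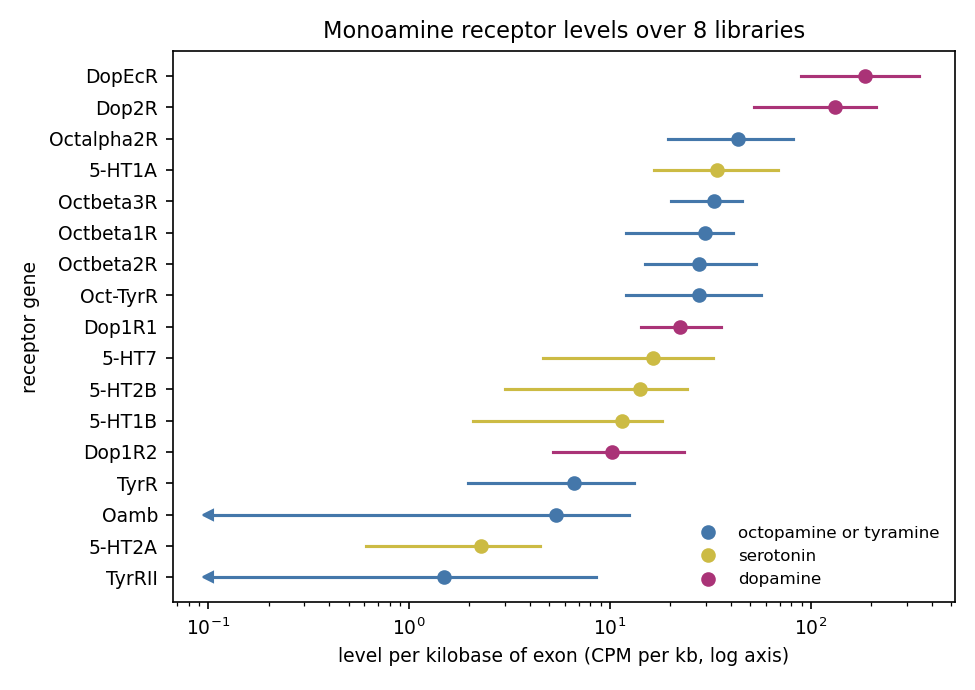
Mean level per kilobase of exon (log x axis) of 17 monoamine receptor genes over the 8 libraries, with a line from the lowest to the highest library; an arrow marks a lowest library at 0. DopEcR (186.1) and Dop2R (131.7) stand above the other 15 genes, Dop1R1 (22.2) lies in the middle and Dop1R2 (10.3) in the lower part.

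Marker genes of several cell types also differed in level between the groups. Summed over elav, nSyb, Syt1 and brp, the neuron genes came to 5850 to 8519 CPM in the naive group and 3462 to 5725 CPM in the mated group. Each of the 4 had a lower mean in mated libraries, and their median log2 fold change was −0.60. The unadjusted edgeR p was below 0.05 for 3 of these genes, against 5.02% of all tested genes lower, and the adjusted p for none. DESeq2 called 0 of these neuron genes, against 1.64% of genes called lower. The P1 markers fru and dsx summed to 379.7 to 1230 CPM in the naive group and 119.4 to 668.9 CPM in the mated group. Fat body markers summed to 242.8 to 606.8 CPM in the naive group and 1231 to 2954 CPM in the mated group, with 6 of 6 higher in mated libraries. In that list apolpp, a lipid carrier protein, passed the threshold (log2 fold change 2.09, edgeR adjusted p = 0.0163), as did 0.381% of all tested genes. Photoreceptor markers summed to 17.2 to 56.4 CPM in the naive group and 95.9 to 555.7 CPM in the mated group, with 5 of 5 tested genes higher and Arr2, a visual arrestin, past the threshold (log2 fold change 3.79, edgeR adjusted p = 0.0196). Glial markers summed to 108.3 to 315.2 CPM in the naive group and 289.6 to 922.6 CPM in the mated group, with 5 of 5 tested genes higher. In edgeR no glial marker passed, and 4 had an unadjusted p under 0.05, against 5.54% of all tested genes higher. DESeq2 called 3 glial, 5 fat body, 3 photoreceptor and 1 muscle marker, all higher in mated libraries, and 0 Kenyon cell or hemocyte markers. That fit called 423 genes in all, of which 134 were lower. The glial transcription factor repo had a count of 0 in 1 naive and 1 mated library. Muscle markers summed to 6.61 to 38.9 CPM in the naive group and 22.0 to 142.4 CPM in the mated group, hemocyte markers to 0 to 5.30 and 6.33 to 15.4 CPM, and Kenyon cell markers to 1164 to 2346 and 720.7 to 2632 CPM. The Kenyon cell sum came mostly from mub (mean 1220 CPM), dac (183 CPM) and toy (112 CPM). In that list prt averaged 19.6 CPM and ey 7.06 CPM, and ey had a count of 0 in 1 naive library. The part of these markers in the receptor differences was not tested.

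Against the 4 neuron genes the differences between groups were smaller for DopEcR and Dop1R1 and turned direction for Dop1R2 and Dop2R. The log2 ratio of DopEcR to their geometric mean was −0.81, −0.61, −0.19 and −0.48 in naive libraries 1 to 4 and −1.11, −0.94, −1.16 and −0.67 in mated libraries 1 to 4. Only mated library 4 reached the naive range. The mean ratio was −0.52 ± 0.26 in the naive group and −0.97 ± 0.22 in the mated group (SD, n = 4; exact permutation test, two-sided, p = 0.0571). For Dop1R1 the mean log2 ratios were −1.97 ± 0.27 and −1.99 ± 0.37 (exact permutation test, p = 0.943). For Dop1R2 they were −4.94 ± 1.05 in the naive group and −4.43 ± 0.85 in the mated group (exact permutation test, p = 0.429), and for Dop2R −0.70 ± 0.58 and −0.52 ± 0.59 (exact permutation test, p = 0.657). With libraries scaled to the neuron genes, edgeR gave DopEcR a log2 fold change of −0.45 (adjusted p = 0.309), Dop1R1 −0.009, Dop1R2 0.37 and Dop2R 0.19. This scaling moved the median of all tested genes from −0.009 to 0.63.

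**Figure D4:**
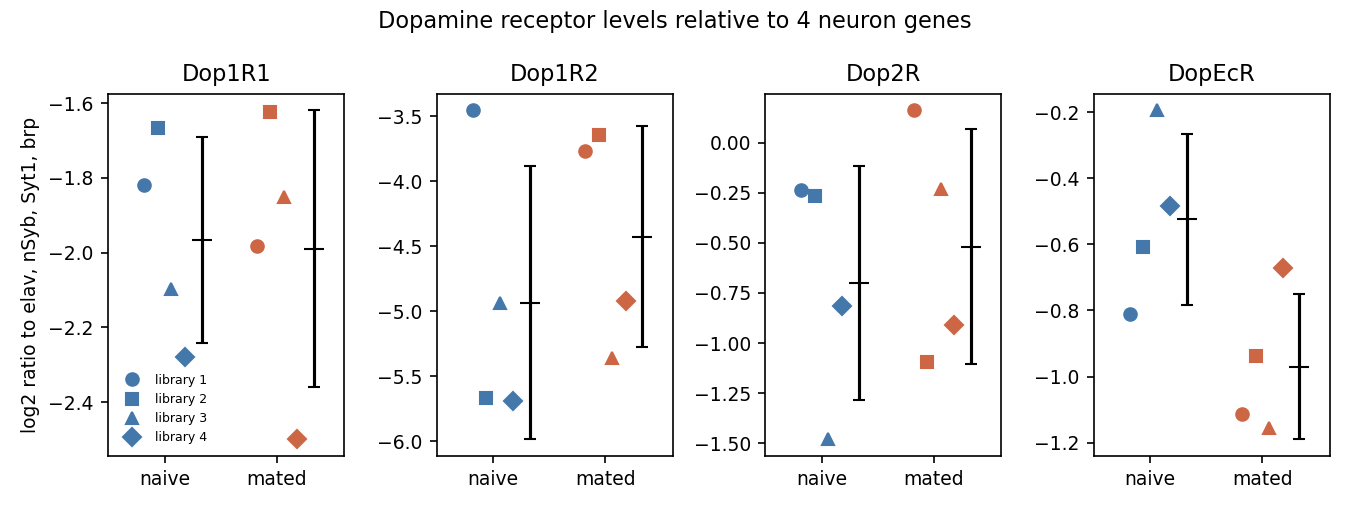
Log2 ratio of each receptor to the geometric mean of elav, nSyb, Syt1 and brp (y axis, 1 scale per gene) in each naive (blue) and mated (orange) library, with mean and SD. DopEcR ranges from −0.81 to −0.19 in the naive group and from −1.16 to −0.67 in the mated group, and the groups of all 4 receptors overlap.

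Fold changes across the whole table moved with exon length, and the receptors have 4.291 to 14.565 kb of exon. The median log2 fold change of tested genes went from 0.40 under 1 kb of exon (1034 genes) to −0.21 between 4 and 6 kb (912 genes), −0.35 between 6 and 10 kb (610 genes) and −0.49 above 10 kb (230 genes). Dop1R1, at 14.565 kb, had −0.65 where the quartiles of its length class were −0.71 and −0.23. Dop2R and Dop1R2 also lay between the quartiles of their classes. DopEcR, at −1.06, lay below the lower quartile of its class (−0.64). With the trend of each library with length removed, the log2 fold change was −0.11 for Dop1R1, −0.026 for Dop1R2, −0.099 for Dop2R and −0.97 for DopEcR (edgeR, adjusted p = 0.169 for DopEcR). That fit placed the median of all tested genes at −0.12. The part of exon length in the receptor differences, and the cause of the trend, was not tested.

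**Figure D5:**
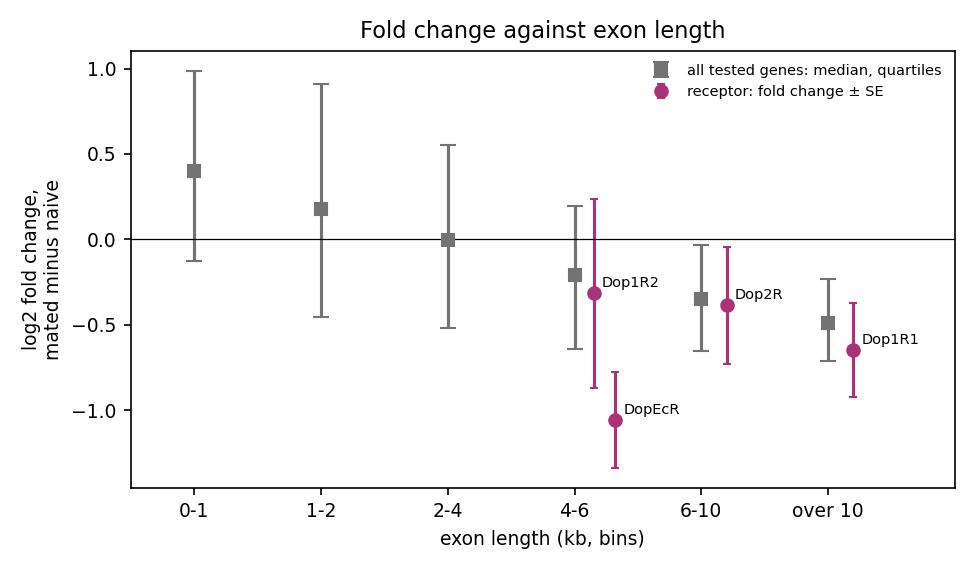
Median and quartiles of the log2 fold change, mated minus naive, of all tested genes by exon length (grey squares and bars), with each receptor placed in its length class (purple, ± SE). Dop1R1, Dop1R2 and Dop2R lie within the quartiles of their classes, and DopEcR (−1.06) lies below the lower quartile of its class (−0.64).

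The genes that make, package and clear dopamine were measured in the same libraries. Of 7 such genes matched, e and t did not pass the filter on low counts and 5 were tested, of which 1 was lower and 4 were higher in mean in mated libraries, with a median log2 fold change of 0.18. None passed the adjusted threshold in edgeR, and Ddc alone had an unadjusted p under 0.05, against 5.02% of all tested genes lower. Ddc, the aromatic amino acid decarboxylase that also serves serotonin synthesis, was the exception to the higher means, with 1719 ± 258 CPM in the naive group and 953.8 ± 244 CPM in the mated group (SD, n = 4) in groups that did not overlap, as for 3.4% of all tested genes (log2 fold change −0.85, edgeR adjusted p = 0.159). DESeq2 called Ddc (adjusted p = 0.0283), as it did 1.64% of genes in this direction. In edgeR the log2 fold change of Ddc was −0.945 with the length trend removed. With libraries scaled to the neuron genes it was −0.29, where the median of all tested genes was 0.63. ple, the tyrosine hydroxylase that defines dopamine neurons, averaged 15.5 ± 18.4 CPM in the naive group and 17.6 ± 9.91 CPM in the mated group. DAT, the dopamine transporter, had a count of 0 in 2 naive libraries. The summed level of ple, DAT, Ddc and Vmat was 1665 to 3373 CPM in the naive group and 1157 to 2918 CPM in the mated group. That sum came mostly from Ddc (mean 1336 CPM) and from Vmat, the vesicular monoamine transporter (mean 803 CPM). Vmat ran from 127.5 to 1261 CPM in the naive group and from 5.09 to 2041 CPM in the mated group.

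Signalling genes downstream of the receptors had mostly lower means in mated libraries, and none of them passed the adjusted threshold in edgeR or DESeq2. Over all 7090 tested genes 3583 were lower and 3507 higher, with a median log2 fold change of −0.009. Of 9 tested G protein genes 7 were lower and 2 higher, with a median of −0.38. Ggamma30A, the most abundant of them, had 7628 ± 2057 CPM in the naive group and 4624 ± 1652 CPM in the mated group (log2 fold change −0.72, edgeR adjusted p = 0.359). Ggamma30A was among 3 lower and 1 higher of the 9 at an unadjusted p under 0.05, against 5.02% lower and 5.54% higher of all tested genes. The others were cta (−0.90), an alpha subunit known from gastrulation, Gbeta13F (−0.51), a widely expressed beta subunit, and Gbeta5 (0.78), a partner of RGS proteins. Galphas, through which Dop1R1 acts, had a log2 fold change of −0.43 (edgeR adjusted p = 0.729), and Galphao, a partner of Dop2R, −0.34 (edgeR adjusted p = 0.683). Galphai, the Gi partner of Dop2R, went the other way, with 1.32 ± 2.02 CPM in the naive group and 11.4 ± 11.5 CPM in the mated group. Its log2 fold change was 3.08 (edgeR adjusted p = 0.611), and its count was 0 in 2 naive libraries.

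The arm that makes and breaks down cyclic AMP held 14 tested genes, of which 12 were lower and 2 higher, with a median log2 fold change of −0.41. Its 3 members at an unadjusted p under 0.05, all lower against 5.02% of all tested genes, were rut, the calcium-sensitive adenylyl cyclase of fly memory (−0.79, edgeR adjusted p = 0.370), and the phosphodiesterases dnc (−0.59, edgeR adjusted p = 0.440) and Pde1c (−0.68, edgeR adjusted p = 0.317). Enzymes that raise and that remove cyclic AMP were thus both among them. All 6 genes of the phospholipase C and calcium arm were lower, with a median of −0.44. Its members at an unadjusted p under 0.05 were Plc21C (−0.54) and calmodulin, Cam (−0.57), against 5.02% of all tested genes lower. Of 5 tested genes for receptor desensitization 4 were lower, with a median of −0.39, among them RSG7, a regulator that speeds G protein turn-off, at −0.66, and the receptor kinase Gprk1, the most abundant, at −0.46. The dopamine receptors' own median was −0.52. With the length trend removed, the medians of the signalling lists were nearer to 0, at −0.25 for G proteins, −0.18 for the cyclic AMP arm, −0.12 for the phospholipase C arm and −0.14 for desensitization, against −0.12 for all tested genes. In that fit dnc had −0.10, Ggamma30A −0.25 and Gbeta5 0.24. Gbeta13F (−0.28), rut (−0.39), Pde1c (−0.35), Plc21C (−0.20), Cam (−0.34) and RSG7 (−0.45) were also nearer to 0 than in the main fit. By contrast, cta (−1.04) and Gprk1 (−0.63) lay farther from 0 than in the main fit. Without naive library 2 the median was −0.22 for G proteins and −0.21 for desensitization. The cyclic AMP median was −0.70 without mated library 3 and −0.68 without mated library 4.

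The other monoamine receptors also had mostly lower means in mated libraries. Of 12 tested, 11 were lower and 1 higher, with a median log2 fold change of −0.42. None passed the adjusted threshold in edgeR, and 2, both lower, had an unadjusted p under 0.05, against 5.02% lower of all tested genes. Among octopamine and tyramine receptors 7 of 7 tested were lower, with a median of −0.66, and among serotonin receptors 4 of 5, with a median of −0.39. The serotonin receptor median was −0.066 when mated library 2 was left out, −0.22 for naive library 1 and −0.24 for mated library 1. That of octopamine and tyramine receptors was −0.39 with naive library 2 left out and −0.43 with mated library 1 left out, and that of both lists together was −0.73 with mated library 3 left out. With the length trend removed, the median was −0.38 for octopamine and tyramine receptors and −0.225 for serotonin receptors. For both lists together it was −0.37, against −0.12 for all tested genes. In the main fit 65.0% of tested genes with 4 to 6 kb of exon were lower, and 76.6% of those with 6 to 10 kb. Octbeta2R had 276.6 ± 91.5 CPM in the naive group and 141.0 ± 34.8 CPM in the mated group (log2 fold change −0.97, edgeR adjusted p = 0.220). Octbeta3R had 254.5 ± 28.6 and 147.8 ± 20.3 CPM (log2 fold change −0.78, edgeR adjusted p = 0.239), and DESeq2 called it (adjusted p = 0.00640), against 1.64% of genes called lower. With the length trend removed, edgeR gave −0.65 for Octbeta2R and −0.51 for Octbeta3R. With libraries scaled to the neuron genes it gave −0.34 for Octbeta2R and −0.15 for Octbeta3R, where the median of all tested genes was 0.63. Both couple to Gs, and their groups did not overlap, as for 3.4% of all tested genes. The most abundant of each family were Octalpha2R (−0.72) and 5-HT1A (−0.39). Of 7 genes tied to mating drive and satiety 5 were lower and 2 higher, with a median of −0.17. None of the 7 passed the adjusted threshold in edgeR or DESeq2, and fru alone had an unadjusted p under 0.05, against 5.02% of all tested genes lower. fru had 775.9 ± 338 CPM in the naive group and 286.1 ± 207 CPM in the mated group (log2 fold change −1.44, edgeR adjusted p = 0.325), in groups that overlapped.

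The tested genes whose pattern over the 8 libraries was nearest to each receptor were found by the same root-mean-square difference. DopEcR was nearest to Octbeta2R at 0.144, then to Ace, the acetylcholinesterase, at 0.170 and to cac, a presynaptic calcium channel subunit, at 0.175. Dop1R1 was nearest to dpr8, a cell-surface immunoglobulin protein, at 0.146, then to Flo2 and CG11030, both at 0.173. Dop2R had looser neighbours, with Tpst at 0.243, Dd at 0.248 and aus at 0.265. The neighbours of Dop1R2 were looser still, with Taf10 at 0.380 and CG14341 at 0.393. All these values come from the same 8 libraries, whose depth and marker levels differ between libraries.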

How the data were processed

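RNA of P1 neurons was analysed in 4 libraries from naive and 4 from mated males, with depths of 6897560 to 13651313 counts. The authors deposited raw read counts per gene for 2 runs (A and B) of each library and their sum, which equalled A plus B for every gene. A SMARTer kit for very small RNA amounts was used for cDNA, followed by 15 rounds of amplification, shearing to 200 bp and 12 more rounds, per the labels' protocols. Such amplification can lose rare transcripts and favour some lengths. The submitters' processing notes name cutadapt, HISAT2 2.2.1, featureCounts 1.6.2, MultiQC, edgeR, limma and DESeq2 2.11 and the builds dm6 and BDGP6. Use of strand in counting is not given in the sources used here. Columns left out numbered 0.

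Of 17559 identifiers 17253 matched a symbol. Exon length, position and transcripts came from the Ensembl BDGP6 annotation, release 115, and length was known for 6938 of 7090 tested genes. Sequences were not analysed here. Counts were tested in edgeR 4.0.16 (R 4.3.3) with filterByExpr, TMM scaling, glmQLFit (robust) and glmQLFTest on group, with Benjamini-Hochberg adjustment over all tested genes and a threshold of 0.05. The standard error is the coefficient divided by the square root of F, and the 95% interval uses it. Single values were compared by exact permutation over the 70 assignments, two-sided (scipy 1.17.1, Python 3.11.15). The code was tested on simulated data.

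Alternatives were TMMwsp, upper-quartile, library-size and neuron-gene scaling, no filter, a minimum of 10 counts, no robust option, each run alone, a length trend removed by lowess (span 0.3), title number as a factor, each library left out, and DESeq2 1.42.0. The receptors and gene lists were chosen with earlier results of these data known. Named in a list are its most abundant member, members at an unadjusted p under 0.05, and some of the members at or under the floor of 3 counts, and for likeness the 3 nearest genes, of which 1 is not reported here. Galphas, Galphao, Galphai, ple and DAT were named for their role after their values were seen. The Kenyon cell markers and Vmat were named to show which genes made up the sums of their lists. The list symbol AANAT1 had no match and was not analysed here. Outlying libraries were looked for in 42 groups of 4 values by Dixon's test, and 0 were found.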

Additional observations from a re-analysis of the deposited data

How the results depend on the processing

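Of 84 alternative values for the 4 receptors, all drawn from the same 8 libraries, 80 lay below 0. These include values close to 0, such as Dop1R1 at −0.009 with neuron-gene scaling. With the length trend removed, Dop1R1 (−0.11), Dop1R2 (−0.026) and Dop2R (−0.099) lay near the median of all tested genes (−0.12). An adjusted p under 0.05 was reached by DopEcR in DESeq2 alone (log2 fold change −1.05). The exact permutation test of DopEcR (mean log2 difference −1.07) gave a p that is not adjusted over genes. Scaling to 4 neuron genes turned Dop1R2 to 0.37 and Dop2R to 0.19, leaving out naive library 1 turned Dop1R2 to 0.29, and the title number as a factor turned Dop2R to 0.73. The title-number value rests on the 1 naive and 2 mated libraries that share number 1119. Leaving out 1 library gave −0.82 to −0.49 for Dop1R1, −0.57 to 0.29 for Dop1R2, −0.59 to −0.15 for Dop2R and −1.28 to −0.87 for DopEcR. The count of genes past the threshold was 27, against 46 with library-size scaling, 122 with neuron-gene scaling, 56 without a filter, 64 with a minimum of 10 counts, 47 in run B alone, 14 with the length trend removed, 0 with the title number fitted, 423 in DESeq2 and 6 to 53 with 1 library left out. In that title-number fit in edgeR 452 genes had an unadjusted p under 0.05, and DESeq2, run without that factor, called 423. Shortest transcripts gave 123.6, 197.2 and 329.4 CPM per kb for Dop1R1, Dop2R and DopEcR.

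Neuron-gene scaling, tried for the lists after the data were seen, moved the median of all tested genes from −0.009 to 0.63, and the sign changes under it come with that common shift: Gbeta13F turned to 0.092, Plc21C to 0.067, Cam to 0.020, Gprk1 to 0.20 and 5-HT1A to 0.25, and 5-HT1A was 0.038 without naive library 3. List medians turned to 0.30 for G proteins, 0.13 for cyclic AMP, 0.18 for phospholipase C, 0.30 for desensitization, 0.071 for octopamine and tyramine receptors, 0.25 for serotonin receptors, 0.13 for both receptor lists and 0.34 for mating drive. Leaving out 1 library gave medians of −0.65 to 0.027 for mating drive and −0.23 to 0.56 for dopamine synthesis, which was below 0 without naive library 2 or 3 (−0.13). The cause of the shifts with libraries left out or with the title number was not tested. No paired analysis was possible because the labels give no replicate number that ties a naive to a mated library, although the series description speaks of 4 paired sets. The main limits are 4 libraries a group and an unknown number of cells in each.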
